A study of Mus musculus with 25 samples.

Results

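The genes described here are 45 genes of mouse chromosome 7 listed as neighbours of Bmal1, whose official symbol, used for its values here, is Arntl. The gene was deleted from cholinergic neurons in this study. The list was drawn up with earlier results of these data known, and it does not hold every gene of the region. All 45 reached the minimum of 10 counts summed over the 24 immunoprecipitated libraries, as did 21738 of the 50559 genes in the count table. On the GRCm38 build Arntl lies at chr7:113207465-113314126 on the plus strand. Of the 45 genes, 44 start from -3.09 Mb (Wee1) to 12.5 Mb (Gtf3c1) of the Arntl start, where negative distances lie before it. The position of the remaining one went against the label: Nomo1 lies at chr7:46033698-46084212, at -67.2 Mb, so it shares the chromosome with Bmal1 but does not flank it. With Nomo1, 15 genes lie before Arntl and 30 after it, and 28 start within 5 Mb. Between the first and the last of the 44, 83 further tested genes are not on the list. Of these, 46 lie between Dcun1d3 (6.69 Mb) and Kdm8 (12.24 Mb), where no gene is listed.

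Ribosome-bound RNA was collected from the spinal cord of 6-month-old male C57BL/6J mice by the RiboTag method, in which a Cre recombinase switches on an HA-tagged copy of the ribosomal protein Rpl22, so that ribosomes of the Cre-expressing cells can be pulled down with an antibody. ChAT-Cre, driven by the choline acetyltransferase locus, directed the tag to cholinergic cells, which in the spinal cord include the motor neurons. ChAT-BKO mice carried ChAT-Cre, 1 RiboTag allele (RiboTag fx/+) and floxed Bmal1 on both chromosomes (Bmal1 fx/fx), and were labelled Bmal1 knockout. Controls, labelled wild-type, carried ChAT-Cre and RiboTag fx/+ without a floxed Bmal1 allele. Tissue was taken in the light phase at zeitgeber time 8 (ZT8) or in the dark phase at ZT20, with n = 6 mice for each genotype and time. In addition, 1 library was made from pooled input RNA of whole spinal cord. The immunoprecipitated libraries held between 4035327 and 31685178 counts each, and 3 counts corresponded to between 0.0947 and 0.743 CPM across them, where CPM is a gene's count per 1000000 counts of its library. All 7 cholinergic marker genes were above the pooled input in the immunoprecipitate, with a median log2 ratio of 2.82, whereas 0 of the 37 markers of glia, vessels, fibroblasts and muscle were above it.

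BMAL1 pairs with CLOCK, binds E-box motifs in DNA and drives rhythmic transcription, including that of the genes whose products repress it. Among its neighbours, Wee1 encodes a kinase that holds back entry into mitosis and is a textbook target of the clock. The other listed genes are known for unrelated functions, and they have in common their place on the chromosome. A targeted allele is bred together with the DNA around it. Since the controls had no floxed allele, the loss of Bmal1 and the chromosome 7 DNA carried with the floxed allele differed together between the groups and cannot be told apart here; the ChAT-Cre and RiboTag loci, on chromosomes 14 and 4, were shared by both genotypes.

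The start regions of the listed genes were searched for the canonical E-box, CACGTG, which reads the same on both strands. Mouse RefSeq sequences (GRCm38.p6, from 250 bases before to 50 after each start) were found for 33 of the 45 genes, and Wee1 and Syt17 were not among those searched. Of these 33, 1 (3.03%) held a CACGTG, compared with 8.09% of the 27025 genes with such a sequence. The variant CACGTT, searched on both strands and unable to match the same 6 bases, was present in 2 of the 33, or 6.06%, compared with 5.44%. The gene with the CACGTG was Ampd3, an AMP deaminase, in which the motif began at position -78 of 1 of its 3 starts. Bases before the start that lie outside every annotated exon are shown for 3 genes with higher levels in ChAT-BKO mice and for this start of Ampd3, with the E-box in capitals. They cover chr7:118129663-118129875 (minus strand) for Arl6ip1, chr7:118584737-118584936 (minus strand) for Tmc7, chr7:125552021-125552119 (plus strand) for Il4ra and chr7:110772354-110772603 (plus strand) for Ampd3.
Arl6ip1: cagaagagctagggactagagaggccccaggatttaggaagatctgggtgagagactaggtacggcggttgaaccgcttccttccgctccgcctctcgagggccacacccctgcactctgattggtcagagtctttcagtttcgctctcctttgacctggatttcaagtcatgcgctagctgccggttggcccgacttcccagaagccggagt
Tmc7: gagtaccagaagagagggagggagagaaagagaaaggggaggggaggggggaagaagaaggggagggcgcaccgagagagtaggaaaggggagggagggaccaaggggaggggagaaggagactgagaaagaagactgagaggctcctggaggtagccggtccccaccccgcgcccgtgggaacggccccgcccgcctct
Il4ra: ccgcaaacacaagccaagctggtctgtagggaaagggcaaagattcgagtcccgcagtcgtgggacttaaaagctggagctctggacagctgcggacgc
Ampd3: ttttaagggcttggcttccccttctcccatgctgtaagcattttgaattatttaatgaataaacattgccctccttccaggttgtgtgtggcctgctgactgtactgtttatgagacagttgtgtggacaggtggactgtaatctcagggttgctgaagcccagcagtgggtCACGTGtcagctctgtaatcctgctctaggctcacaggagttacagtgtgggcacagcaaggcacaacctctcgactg
The windows of Arl6ip1, Tmc7 and Il4ra held neither CACGTG nor CACGTT. The absence of these letters from a window says nothing of binding elsewhere.

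The deletion was first checked in every group. Arntl ranged from 6.22 to 9.99 CPM (median 8.55) in controls and from 1.97 to 3.30 CPM (median 2.60) in ChAT-BKO mice at ZT8. At ZT20 it ranged from 7.60 to 10.9 CPM (median 8.50) in controls and from 1.35 to 2.80 CPM (median 1.81) in ChAT-BKO mice. All ChAT-BKO libraries were below all control libraries at both times, and the log2 fold change was -1.64 ± 0.16 (SE, adjusted p = 1.56e-05) at the first time and -2.08 ± 0.16 (adjusted p = 1.98e-07) at the second, by edgeR's quasi-likelihood test with Benjamini-Hochberg adjustment over all genes tested.

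Do genes beside Bmal1 differ between ChAT-BKO and control mice? At ZT8, 2 of the 45 genes were higher in ChAT-BKO mice and 0 lower at an adjusted p under 0.05. Of all genes tested, 0.184% were called, 0.129% higher and 0.0552% lower. At ZT20 again 2 were higher and 0 lower, against 0.23% of all genes, 0.189% higher and 0.0414% lower. With both time points in 1 fit of 24 libraries and time as a covariate, 4 were higher and 0 lower, that is 8.89% of the 45, against 0.741% of all genes (115 or 0.529% higher and 46 or 0.212% lower). These 4 were Arl6ip1, Il4ra, Tmc7 and Syt17. The comparison over both times uses the libraries of the other 2 comparisons and is not a further observation. Since the list was not drawn up blind to the values, its share of calls carries no test. Of the 83 unlisted genes in the same span, 5 were called over both times, with 0 among the 46 between Dcun1d3 and Kdm8.

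Arl6ip1 encodes a membrane protein that shapes the tubules of the endoplasmic reticulum and is mutated in a hereditary spastic paraplegia. It lies 4.92 Mb after the Arntl start, at chr7:118118891-118129662. At ZT8 it ranged from 317 to 367 CPM (median 360.0) in controls and from 405 to 455 CPM (median 440.0) in ChAT-BKO mice. At ZT20 it ranged from 343 to 367 CPM (median 358) in controls and from 404 to 458 CPM (median 442) in ChAT-BKO mice. The groups did not overlap at either time. The log2 fold change was 0.31 ± 0.05 (adjusted p = 0.00706) at ZT8, 0.28 ± 0.05 (adjusted p = 0.00632) at ZT20 and 0.30 ± 0.03 over both (adjusted p = 2.58e-07, edgeR), a 1.23-fold difference.

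Il4ra encodes the alpha chain of the receptors for interleukin-4 and interleukin-13. It lies much farther away, 12.34 Mb after the Arntl start at chr7:125552120-125579474. At ZT8 it ranged from 41.0 to 50.5 CPM (median 45.0) in controls and from 56.7 to 62.9 CPM (median 60.2) in ChAT-BKO mice. At ZT20 the range was 42.1 to 51.1 CPM (median 43.4) in controls and 54.9 to 68.6 CPM (median 60.3) in ChAT-BKO mice. Again the groups were fully separate at both times. The log2 fold change was 0.40 ± 0.07 (adjusted p = 0.0119) at ZT8, 0.44 ± 0.06 (adjusted p = 0.00204) at ZT20 and 0.42 ± 0.04 over both (adjusted p = 2.24e-07, edgeR). Without ChAT-BKO ZT8 replicate 3 the ZT8 value was 0.39 with an adjusted p of 0.0513, and the call at that time was lost. The other 3 listed genes beyond 12 Mb did not pass the test over both times: Kdm8, a JmjC-domain protein, gave -0.01 ± 0.06, Nsmce1, a subunit of the SMC5/6 complex, gave -0.09 ± 0.10, and Gtf3c1, a subunit of the RNA polymerase III factor TFIIIC, gave 0.07 ± 0.04.

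Tmc7 belongs to the transmembrane channel-like family and lies 5.38 Mb after the Arntl start, at chr7:118535841-118584736. At ZT8 it ranged from 1.61 to 3.34 CPM (median 2.40) in controls and from 2.81 to 4.89 CPM (median 3.58) in ChAT-BKO mice. At ZT20 the range was 1.60 to 2.52 CPM (median 2.07) in controls and 2.86 to 4.28 CPM (median 3.32) in ChAT-BKO mice. The groups were separate at ZT20, and at ZT8 4 of 6 ChAT-BKO libraries were above the highest control. Tmc7 had the largest log2 fold change of the 4 genes, 0.70 ± 0.12 over both times (adjusted p = 0.00101, edgeR). It did not pass at either time alone, with 0.63 ± 0.19 (adjusted p = 0.565) at ZT8 and 0.78 ± 0.17 (adjusted p = 0.0665) at ZT20.

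Syt17, a synaptotagmin family member with C2 domains, lies 5.24 Mb after the Arntl start, at chr7:118380717-118448222. At ZT8 it ranged from 6.74 to 10.7 CPM (median 8.24) in controls and from 10.0 to 11.7 CPM (median 11.1) in ChAT-BKO mice. At ZT20 the range was 7.18 to 10.5 CPM (median 8.08) in controls and 7.66 to 12.2 CPM (median 11.0) in ChAT-BKO mice. The groups overlapped at both times. The log2 fold change was 0.34 ± 0.08 over both (adjusted p = 0.0396, edgeR), 0.37 ± 0.11 (adjusted p = 0.631) at ZT8 and 0.32 ± 0.12 (adjusted p = 0.697) at ZT20. This call was the least secure: it held in 7 of the 24 fits that each left out 1 library, in which the adjusted p ranged from 0.011 to 0.0953.

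**Figure D1:**
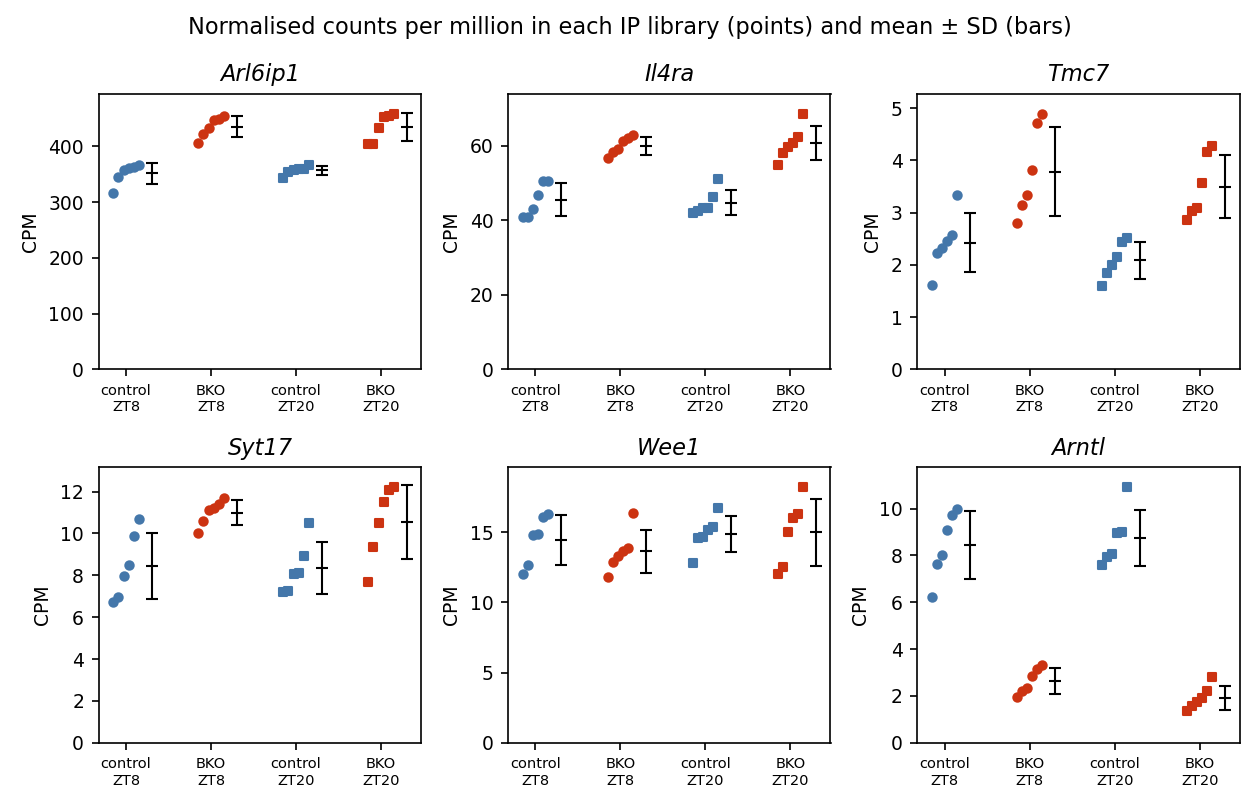
CPM (y axis, from 0) of the 4 genes called over both times, of Wee1 and of Arntl in each immunoprecipitated library, sorted within each group, for controls (blue) and ChAT-BKO mice (BKO, red) at ZT8 (circles) and ZT20 (squares), with the mean ± SD (n = 6) as bars. Arl6ip1 and Il4ra are separate between genotypes at both times, Tmc7 at ZT20, and Wee1 overlaps throughout.

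Whether the difference between genotypes itself changed with time was tested directly. The interaction of genotype and time gave 0 calls among the 45 genes and 0% over all genes tested. DESeq2 and limma voom also gave 0 calls over all genes. At an unadjusted p under 0.05 there was 1 of the 45 genes (Nsmce1) and 848 of all 21738. The effect at ZT20 minus that at ZT8 was -0.03 ± 0.06 for Arl6ip1, 0.04 ± 0.09 for Il4ra, 0.17 ± 0.24 for Tmc7 and -0.04 ± 0.17 for Syt17, all on the log2 scale. For Nsmce1 it was -0.42 ± 0.19 (unadjusted p = 0.0375, adjusted p = 1, edgeR).

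The 2 times share no libraries, so the sign of each gene's effect could be set side by side. Because the list was drawn up with earlier results known, the shares below are no independent check and carry no test. Of the 45 genes, 25 were above controls at both times and 5 below at both, giving the same sign in 66.7%, compared with 53.8% of all genes tested. In the fit over both times 26 of the 45 (57.8%) were above controls and 19 below, against 49.5% of all genes above. The median log2 fold change of the 45 genes was 0.04 at ZT8, 0.04 at ZT20 and 0.04 over both, beside medians of 0.00, -0.01 and -0.00 over all genes. At an unadjusted p under 0.05, 6 of the 45 (13.3%) passed at ZT8 against 4.83% of all genes, 11 (24.4%) at ZT20 against 6.28%, and 12 (26.7%) over both against 7.04%. Most of the 45 were near 0 all the same. Of the 41 that were not called over both times, 36 had a log2 fold change within 0.25 of 0, and the median SE over the 45 genes was 0.07. The other 5 were Adm, Sox6, Pik3c2a, Itpripl2 and Cyp2r1, and Cyp2r1, a vitamin D 25-hydroxylase, had 27 counts in all 24 libraries together, so that no fold change is given for it.

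**Figure D2:**
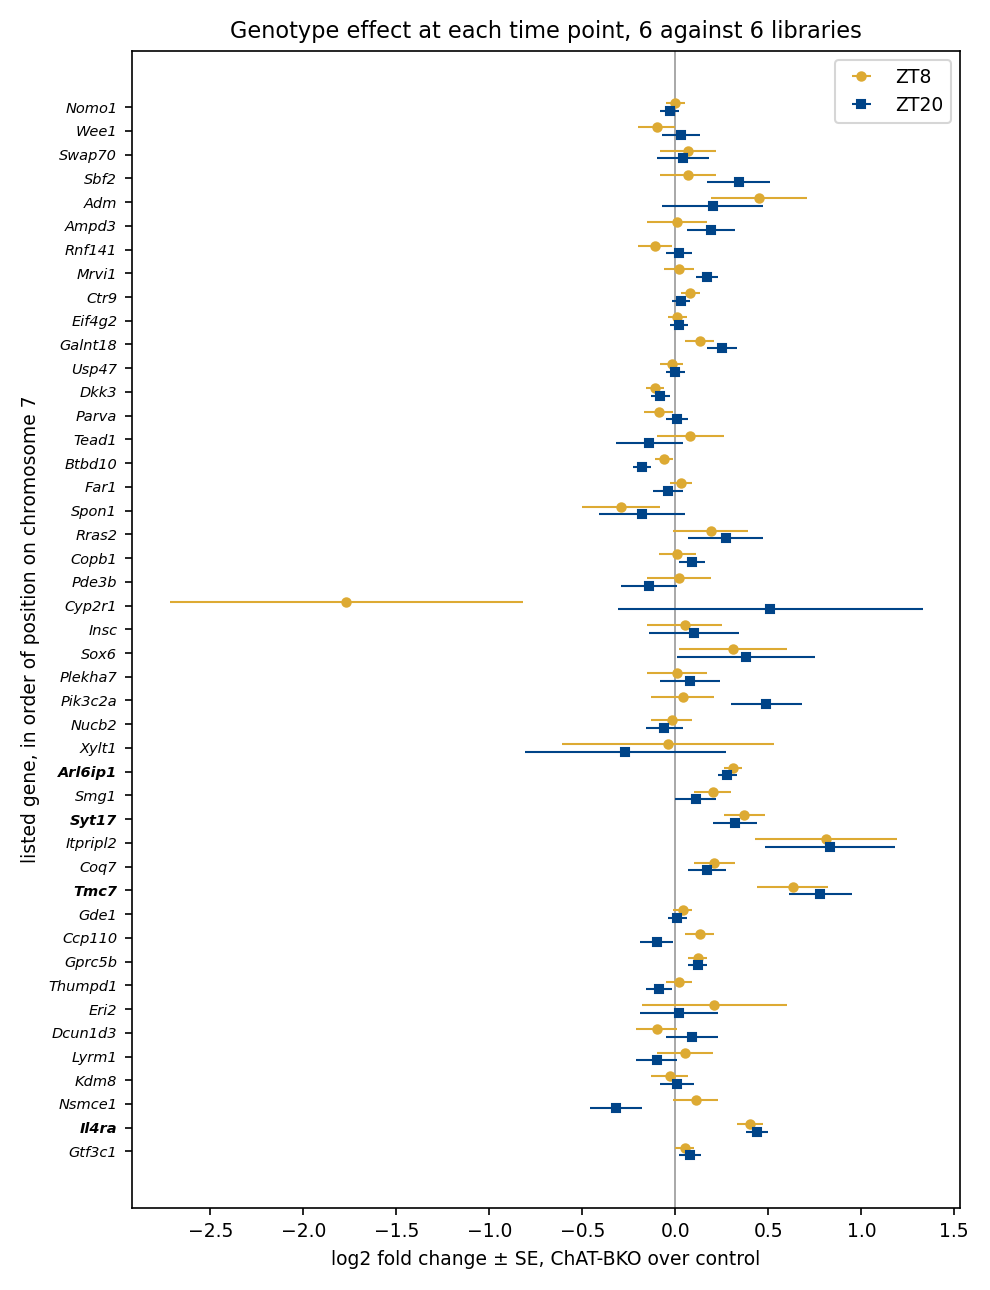
Log2 fold change ± SE of ChAT-BKO over control (x axis) for each of the 45 genes in order of position (y axis), at ZT8 (circles) and ZT20 (squares), 6 against 6 libraries each. Names in bold are called in at least 1 comparison; the run from Arl6ip1 to Tmc7 and Il4ra lie above 0 at both times, and Cyp2r1 has the widest error at 27 counts.

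The uncalled listed gene nearest to the threshold over both times was Gprc5b. Gprc5b, an orphan G protein-coupled receptor 5.79 Mb after Arntl, ranged from 218 to 232 CPM (median 227) in controls and from 231 to 254 CPM (median 244) in ChAT-BKO mice at ZT8. At ZT20 it ranged from 213 to 235 CPM (median 225) in controls and from 226 to 260.0 CPM (median 249) in ChAT-BKO mice, so the groups overlapped slightly at both times. Its log2 fold change was 0.12 ± 0.03 over both (adjusted p = 0.0535, edgeR), and DESeq2 and limma voom called it.

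Next by adjusted p came Btbd10, Galnt18, Itpripl2 and Dkk3, of which Btbd10 and Dkk3 were below controls. Btbd10, a BTB-domain protein, is the listed gene nearest to Arntl on its distal side, 0.16 Mb from its start. At ZT8 it ranged from 70.2 to 73.1 CPM (median 71.7) in controls and from 64.3 to 71.1 CPM (median 69.1) in ChAT-BKO mice, which overlapped. At ZT20 it ranged from 72.0 to 80.1 CPM (median 74.5) in controls and from 61.7 to 70.7 CPM (median 66.3) in ChAT-BKO mice, and the groups were separate. The log2 fold change was -0.18 ± 0.05 at ZT20 (adjusted p = 0.328) and -0.12 ± 0.03 over both (adjusted p = 0.104, edgeR), and DESeq2 called it over both. Galnt18, grouped here with the glycosyltransferases, gave 0.19 ± 0.05 over both (adjusted p = 0.135, edgeR). Itpripl2 gave 0.82 ± 0.26 (adjusted p = 0.228, edgeR), and the secreted glycoprotein gene Dkk3 gave -0.10 ± 0.03 (adjusted p = 0.286, edgeR).

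Counted by separation alone, 2 of the 45 genes did not overlap between genotypes at ZT8 (Arl6ip1 and Il4ra, above controls) against 0.57% of all genes. At ZT20, 4 did not overlap (Arl6ip1, Tmc7 and Il4ra above, Btbd10 below) against 0.506% of all genes.

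Grouped by role, the 4 calls over both times fell in more than 1 group, where 0.741% of all genes were called. The groups are small and were chosen with earlier results known, so their counts are a description only. Among the 8 genes of the cell cycle and signalling, 1 rose over both times (Il4ra) and 7 did not pass. Among the 7 genes of membrane traffic, lipids and the endoplasmic reticulum, Arl6ip1 and Syt17 rose and 5 did not pass. None of the 6 genes of transcription and chromatin passed, with log2 fold changes from -0.09 to 0.34. None of the 4 genes of RNA and translation passed, with values from -0.03 to 0.16 and the highest in Smg1, the kinase of nonsense-mediated decay. The 6 secreted proteins and glycosyltransferases (-0.24 to 0.32), the 4 genes of actin, adhesion and polarity (-0.04 to 0.07), the 3 of the ubiquitin pathway (-0.05 to -0.01) and the 4 of metabolism and mitochondria (-0.36 to 0.19) held no call either. The remaining 3 were Btbd10, Itpripl2 and Tmc7, of which Tmc7 rose.

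Wee1 was followed separately as the clock target among the neighbours. At ZT8 it ranged from 12.0 to 16.3 CPM (median 14.9) in controls and from 11.8 to 16.4 CPM (median 13.5) in ChAT-BKO mice. At ZT20 the range was 12.8 to 16.7 CPM (median 14.9) in controls and 12.0 to 18.2 CPM (median 15.5) in ChAT-BKO mice. The ranges overlapped almost wholly. The log2 fold change between genotypes was -0.10 ± 0.10 at ZT8, 0.03 ± 0.10 at ZT20 and -0.03 ± 0.07 over both (adjusted p = 1, 0.977 and 0.985, edgeR). From ZT8 to ZT20 it was 0.05 ± 0.09 in controls and 0.18 ± 0.11 in ChAT-BKO mice (adjusted p = 0.948 and 0.644). Arntl itself differed by 0.05 ± 0.13 between these times in controls (adjusted p = 0.961, edgeR). With only ZT8 and ZT20 sampled, a rhythm with like levels at both would not be seen.

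Do the neighbours differ between ZT8 and ZT20? None of the 45 genes passed in controls, against 0.115% of all genes, or in ChAT-BKO mice, against 0.285% of all genes. In each, 3 of the 45 (6.67%) were under an unadjusted p of 0.05. Of all genes, 8.25% were under it in controls and 9.42% in ChAT-BKO mice. DESeq2 called 1 listed gene in controls and 0 in ChAT-BKO mice, against 127 and 225 of all genes. Limma voom called 0 listed genes in both, against 34 and 45 of all genes. The gene called by DESeq2 was Pde3b, a phosphodiesterase that breaks down cyclic nucleotides. In controls it ranged from 3.66 to 6.14 CPM (median 5.43) at ZT8 and from 6.95 to 9.73 CPM (median 7.86) at ZT20, and it was the 1 listed gene whose times did not overlap there (0.938% of all genes did not). The log2 difference was 0.64 ± 0.13 (adjusted p = 0.0895, edgeR). In ChAT-BKO mice it ranged from 4.07 to 8.07 CPM (median 5.06) at ZT8 and from 3.85 to 9.61 CPM (median 7.10) at ZT20, with a log2 difference of 0.49 ± 0.18 (adjusted p = 0.354). The 2 differences were not shown to differ from each other (-0.14 ± 0.23, adjusted p = 1, edgeR). No listed gene was separate between times in ChAT-BKO mice, against 1.18% of all genes. As for Wee1, ZT8 and ZT20 alone cannot show whether a listed gene is rhythmic.

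The listed genes were then placed among all 452 tested genes within 20 Mb of Arntl. Over both times 16 of the 452 were called, 14 higher and 2 lower in ChAT-BKO mice, or 3.54%, compared with 0.709% of the 1129 tested genes on the rest of chromosome 7 and 0.687% of the 19664 on other chromosomes. By distance, 5 of 72 genes (6.94%) were called within 5 Mb, 4 of 105 (3.81%) at 5 to 10 Mb and 7 of 275 (2.55%) at 10 to 20 Mb. This order depends on where the bins are cut, since Arl6ip1 and the unlisted Rps15a, counted within 5 Mb, start at 4.92 and 4.91 Mb. Around the other engineered loci, which both genotypes carried, 4 of 304 genes (1.32%) were called within 20 Mb of Chat and 5 of 432 (1.16%) within 20 Mb of Rpl22. At ZT8 alone 4 of the 452 were called (0.885%) and at ZT20 alone 5 (1.11%). By the same distance bins the shares were 2.78%, 0% and 0.727% at ZT8 and 2.78%, 0% and 1.09% at ZT20. These shares are counts of genes that lie together and share libraries, and they carry no test.

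**Figure D3:**
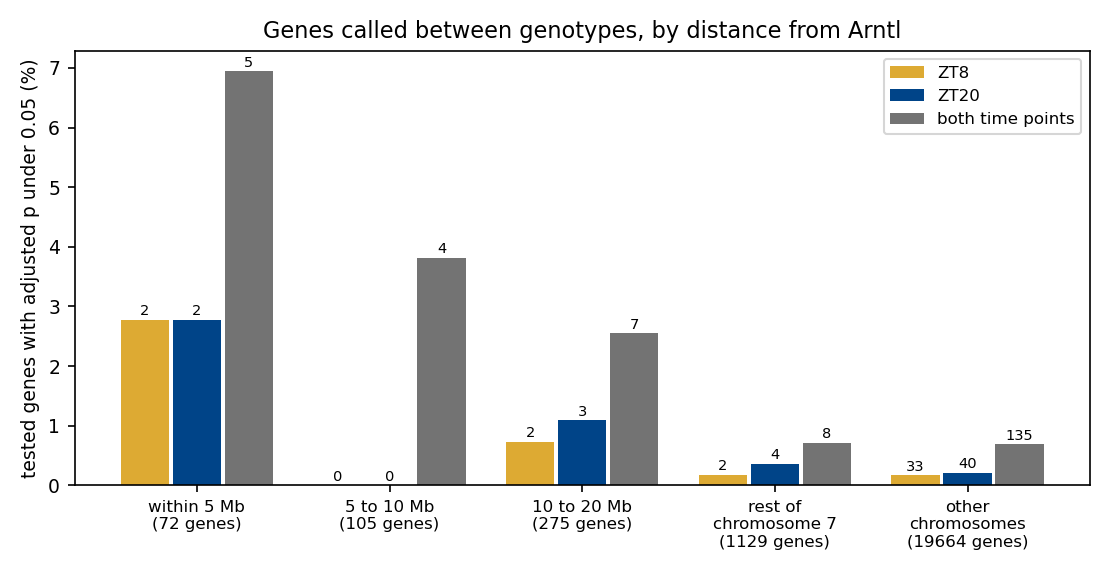
Percentage of tested genes with an adjusted p under 0.05 between ChAT-BKO and control mice (y axis, from 0) by distance from Arntl (x axis), at ZT8, at ZT20 and over both times, with the number of genes called above each bar. Over both times the share is 6.94% within 5 Mb, 3.81% at 5 to 10 Mb and 2.55% at 10 to 20 Mb, with 0.687% on other chromosomes. In the same order it is 2.78%, 0% and 0.727% at ZT8 and 2.78%, 0% and 1.09% at ZT20, not a steady fall.

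The calls lay on both sides of Arntl and were not spread evenly. After the values were seen, a stretch from 4.5 to 6 Mb after the Arntl start was singled out. It holds 16 tested genes, of which 6 (37.5%) were called over both times, all higher in ChAT-BKO mice, with a median log2 fold change of 0.24. These were Arl6ip1, Syt17 and Tmc7 of the list, and Rps15a, B230311B06Rik and Knop1, which are not on it. Nearer to Arntl on the same side, 1 of 26 genes was called between 0 and 4.5 Mb (Gm51455), and beyond the stretch 2 of 211 were called between 6 and 20 Mb (Htra1 and Il4ra). Before Arntl, 2 of 44 genes (4.55%) were called within 5 Mb, Mical2 and Nrip3, both higher. Of the 155 genes from 5 to 20 Mb before it, 3.23% were called. There 3 were higher (Arrb1, Lrrc32 and Serpinh1) and 2 lower (Coa4 and Gm35082). Other listed genes of the stretch were above controls without passing over both times. Smg1 gave 0.16 ± 0.07, Gprc5b 0.12 ± 0.03 and Itpripl2 0.82 ± 0.26 on the log2 scale. Coq7, an enzyme of ubiquinone synthesis, gave 0.19 ± 0.08. Within the same stretch, 2 further listed genes were near 0. Gde1, a glycerophosphodiester phosphodiesterase, gave 0.02 ± 0.03, and Ccp110, which caps centrioles, gave 0.01 ± 0.06. Of the unlisted genes there without a call, Tmc5 (0.50 ± 0.26) and Iqck (0.36 ± 0.26) were above controls. Vps35l (-0.01 ± 0.04) and Gpr139 (-0.11 ± 0.19) were below.

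**Figure D4:**
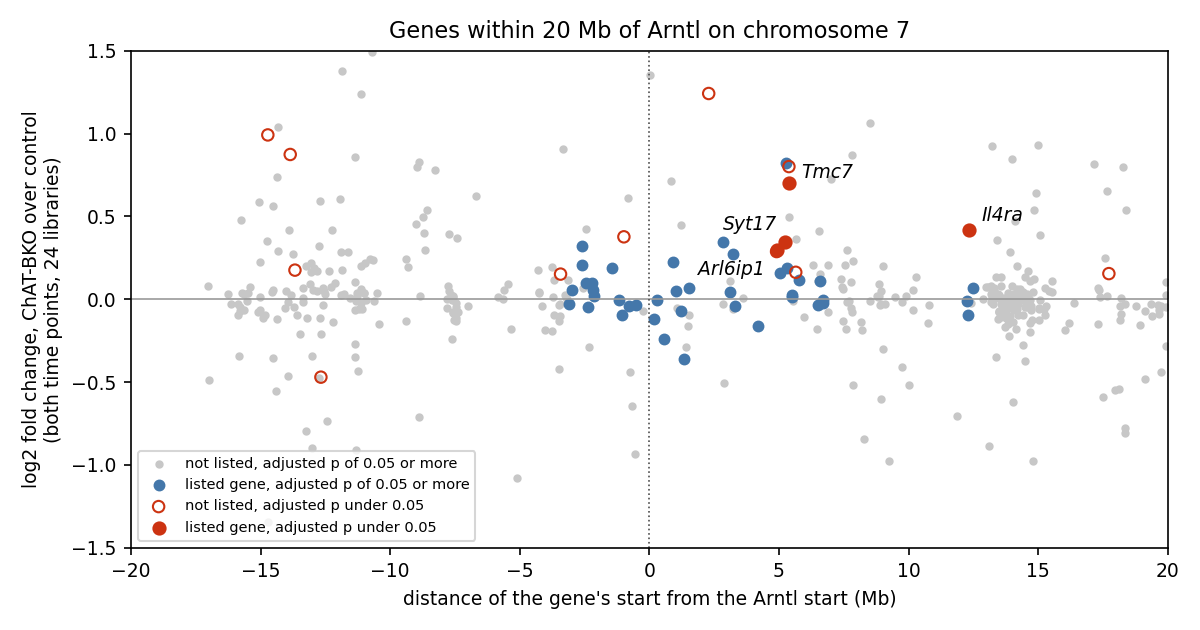
Log2 fold change of ChAT-BKO over control, both times (y axis), against distance of each gene's start from the Arntl start (x axis, Mb) for the 452 tested genes within 20 Mb; filled large points are listed genes and red marks are genes with an adjusted p under 0.05. Red marks gather near 5 Mb after Arntl, with others on both sides of it. Beyond the axis limit of 1.5 lie 5 unlisted genes with a mean of at most 3.7 CPM.

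Of the unlisted genes within 20 Mb, 5 were called at 1 of the times. At ZT8 these were Rps15a, a ribosomal protein gene 4.91 Mb after Arntl (log2 fold change 0.35 ± 0.06, adjusted p = 0.0176, edgeR), and Lrrc32, which anchors latent TGF-beta, at -14.72 Mb (1.31 ± 0.26, adjusted p = 0.0432). Genes like Rps15a are known for many processed copies, and its counts are uncertain for that reason. At ZT20 they were Mical2, an actin-oxidising enzyme at -0.98 Mb (0.44 ± 0.09, adjusted p = 0.0423), and the skeletal muscle genes Atp2a1 and Mylpf, 13.26 and 14.00 Mb after it (2.93 ± 0.50, adjusted p = 0.00955, and 2.09 ± 0.41, adjusted p = 0.0338). In the fit over both times Rps15a gave 0.29 ± 0.05 (adjusted p = 0.00127, edgeR). Lrrc32 gave 0.99 ± 0.17 (adjusted p = 0.000899) and Mical2 0.38 ± 0.07 (adjusted p = 0.00291), so these 3 were called there. At the time without a call they were also above controls. Rps15a gave 0.22 ± 0.07 and Lrrc32 0.70 ± 0.20 at ZT20, and Mical2 gave 0.31 ± 0.10 at ZT8. Neither muscle gene passed in the fit over both times. There the log2 fold change was 1.54 ± 0.61 for Atp2a1 (adjusted p = 0.481, edgeR). For Mylpf it was 0.85 ± 0.52 (adjusted p = 0.849, edgeR). The summed level of 8 skeletal muscle markers at ZT20 ranged from 8.38 to 27.8 CPM (median 12.8) in controls. In ChAT-BKO mice it ranged from 6.73 to 87.2 CPM (median 63.5) at that time. The medians lay the other way at ZT8: 26.8 CPM in controls (5.11 to 91.6) and 8.81 CPM in ChAT-BKO mice (5.93 to 148). The part of this muscle level in the values of Atp2a1 and Mylpf was not tested.

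The 45 genes differed widely in how much of their RNA was recovered with cholinergic ribosomes. The immunoprecipitate was above the pooled input for 20 of them and below for 25, with a median log2 ratio of -0.50, compared with -0.21 over all 19711 genes counted in the input. With a single pooled input these ratios carry no test, and scaling by raw library size lowered each by 0.45 and left 15 genes above. Of the called genes, Il4ra had a log2 ratio of 2.60 (2.23 to 2.97 over the 24 libraries), Syt17 of 1.21 (0.71 to 1.55) and Arl6ip1 of 1.00 (0.70 to 1.20). Tmc7 stood apart from these at -2.73 (-3.61 in the lowest library). Its RNA was thus lower in the immunoprecipitate than in whole cord in 24 of 24 libraries. The highest ratio, 3.10, was that of Mrvi1, a substrate of cGMP-dependent kinase, and the lowest, -4.43, that of Xylt1, which starts glycosaminoglycan chains.

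**Figure D5:**
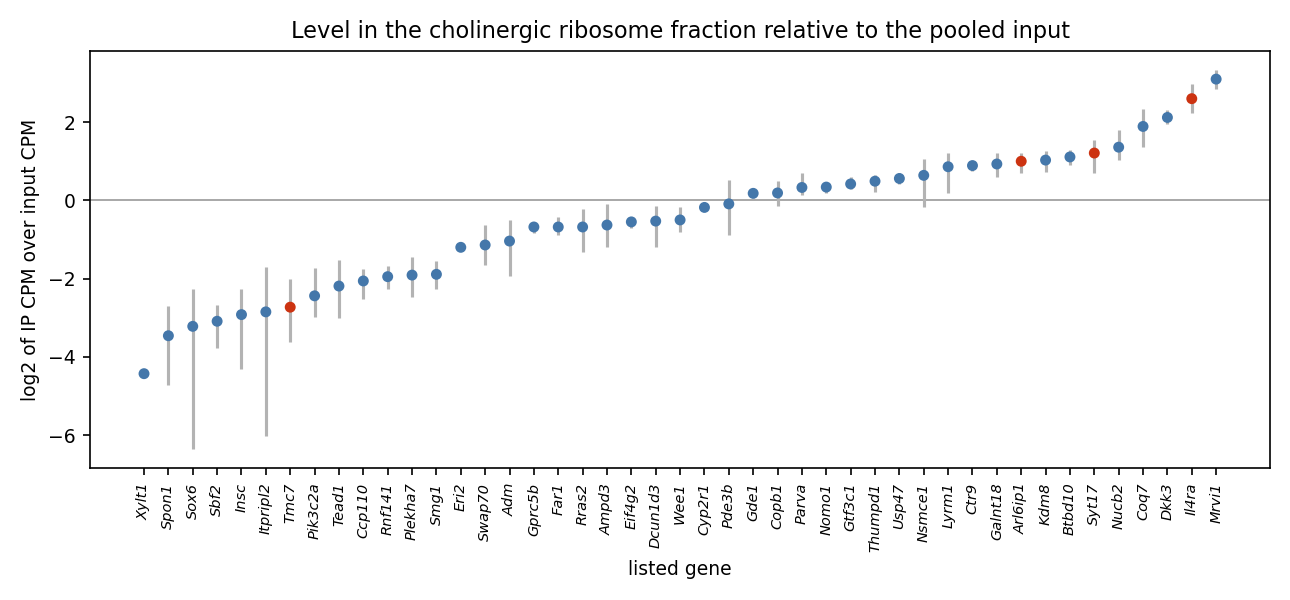
Log2 of immunoprecipitate CPM over the CPM of the 1 pooled input (y axis) for the 45 genes (x axis, ordered by the ratio), as the mean of 24 libraries (points; red for the 4 called genes) with their lowest to highest value (grey lines, left out where a library was at 0). Il4ra, Syt17 and Arl6ip1 lie above 0 and Tmc7 at -2.73 below it.

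The levels of other cell types were set beside these values, most of all for Tmc7. The summed level of 6 astrocyte markers had a control median of 196 CPM and a ChAT-BKO median of 192 CPM at ZT8, and medians of 196 and 210.0 CPM at ZT20. For 6 oligodendrocyte markers the medians were 1860.0 and 1810.0 CPM at ZT8 and 1950.0 and 1920.0 CPM at ZT20. None of these 12 markers, and none of the microglial, endothelial or fibroblast and mural markers, was called between genotypes at either time. Of the 8 skeletal muscle markers, 2 were called at ZT20, Acta1 and Tnnt3, both higher in ChAT-BKO mice, and 0 at ZT8. A higher level per cell and a different share of cells cannot be told apart in pooled ribosomal RNA.

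Neighbouring annotation bears on some of the counts. Arl6ip1, Syt17 and Tmc7 overlap no other annotated gene, and no counts were found for the antisense gene that overlaps Il4ra. A gene with 0 counts was not told apart from a gene that was not counted. Ampd3 and Rnf141 overlap on opposite strands, as do Dcun1d3 and Lyrm1, and how strand was treated in counting is not given in the sources used here, so each pair's values are uncertain. At 95% identity over 200 bases, 9 of the 45 genes share sequence with another annotated gene. None of the 4 called genes shares any with a gene for which counts were found, with the same limit.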

How the data were processed

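The deposited table, made by the authors, holds RSEM expected counts for 50559 genes in 24 immunoprecipitated libraries and 1 pooled input. According to the study's methods and the submitters' processing notes, reads of a stranded mRNA kit were aligned to mm10 with STAR 2.7.5. The expected counts were used as deposited and rounded to whole numbers, since 6.11% were not whole, and the authors' own comparisons were not used. The 21738 genes whose counts over the 24 libraries came to 10 or more were tested with edgeR 4.0.16 (R 4.3.3), using TMM normalisation and the two-sided quasi-likelihood F test, and p values were Benjamini-Hochberg adjusted over all of them. A gene was called at an adjusted p under 0.05. SE is the log2 fold change divided by the square root of F. Each time point was fitted on its own 12 libraries, and both together on 24 with time as a covariate. CPM values are scaled by TMM library sizes. The alternatives were DESeq2 1.42.0, limma 3.58.1 voom, other scalings and filters, a replicate block, all libraries in 1 fit and leaving out each library. The procedure was checked on simulated counts with planted changes larger than those of the called listed genes, so the check does not cover effects of their size.

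Library totals were 4035327 to 31685178 counts (input 7396572). Floors of 3 counts cover counting error only. Positions come from GENCODE M21 (GRCm38) by symbol, as for all 45 listed genes, or from RefSeq where the symbol was absent there. Together they covered 97.7% of the genes tested. RefSeq positions had no strand, so their lower coordinate was taken as the start. Start-region sequences come from RefSeq. The methods give each library as 1 mouse. The listed genes were named in full where called in any comparison, together with Arntl, Wee1 and unlisted genes within 20 Mb called at ZT8 or ZT20; any other unlisted gene, and the listed genes described near the threshold, were chosen after their values were seen. The list of 45 genes, the role groups and the marker lists were chosen with earlier results of these data known.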

Additional observations from a re-analysis of the deposited data

How the results depend on the processing

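Arl6ip1 was called at ZT8, at ZT20 and over both times under every alternative and without each library in turn. Il4ra was called in the same fits except at ZT8 without ChAT-BKO ZT8 replicate 3, and Tmc7 over both times was called in all 32. Syt17 over both times was called in 13 of 32, and was lost with the replicate block (0.35, adjusted p = 0.0805), with no filter on low counts (0.34, adjusted p = 0.054) and in 17 fits without 1 library (adjusted p up to 0.0953). Over all alternatives the adjusted p ranged from 9.8e-06 to 0.0513 for Il4ra at ZT8, from 0.00523 to 0.0953 for Syt17 over both times and from 0.0128 to 0.252 for Tmc7 at ZT20. Tmc7 at ZT20 was called with all 24 libraries in 1 fit (adjusted p = 0.0401), DESeq2 (0.0128) and edgeR's expression filter (0.0481). At an adjusted p under 0.01, 1 listed gene was called at ZT8. Leaving out 1 library gave 1 to 2 calls at ZT8. A fit with the slope of expression on transcript length added was chosen after seeing the data. It called 3 listed genes at ZT8 (Coq7 beside Arl6ip1 and Il4ra) and 4 at ZT20 (Btbd10 and Coq7 beside the same 2). Over both times it called 9 (Btbd10, Coq7, Dkk3, Galnt18 and Gprc5b beside the 4), and between times in controls 1 (Pde3b). How many of all genes this fit called is not given here, so its counts are not set against a background. Pde3b was also the 1 listed call in controls with DESeq2 and with the replicate block. With 10 Mb in place of 20 Mb as the limit around Arntl, 177 genes were tested. Of these, 2 were called at ZT8 (1.13%), 2 at ZT20 (1.13%) and 9 over both times (5.08%). The shares of all genes were 0.184%, 0.23% and 0.741%. Over all genes DESeq2 called 70 at ZT8, 91 at ZT20 and 238 over both, against 40, 50 and 161 with edgeR. The sign of the fold change varied among alternatives for 17 listed genes at ZT8, 13 at ZT20 and 9 over both, none of them called. The replicate numbers did not pair the mice: same-numbered libraries correlated at r from -0.44 to 0.664 in 24 pairs, and 5 libraries correlated best with their own number. The block gave 2 listed calls at ZT8 and 2 at ZT20, the same genes as without it. Apart from the loss of Syt17 over both times and the gain of Pde3b in controls, it changed no listed call. Depth limits Cyp2r1 and Xylt1, with 27 and 53 counts over 24 libraries.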

Other observations

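Chromosome 7 held 25 genes called over both times among 1582 tested, Arntl included, or 1.58%, the highest share of the 20 chromosomes with tested genes counted here; the next was 1.24% on chromosome 10. Lrrc32, at -14.72 Mb, ranged from 0.293 to 1.80 CPM in controls and from 2.64 to 3.57 CPM in ChAT-BKO mice at ZT8. At ZT20 it ranged from 1.40 to 2.09 CPM in controls and from 1.85 to 3.61 CPM in ChAT-BKO mice.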
